A study of Mus musculus with 12 samples.

Results

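The EGF receptor family and its ligands were followed through 4 stages of a shear experiment on cultured mouse podocytes, the epithelial cells that wrap the filtering capillaries of the kidney. The set holds 9 listed genes: the receptors Egfr, Erbb2 and Erbb3, the ligands Hbegf, Ereg, Epgn, Tgfa and Btc, and Errfi1, an inhibitor of the receptor. Each gene was taken from array rows carrying a single gene symbol, using the brightest such row, and all 9 were measured with 1 row each, out of 14860 genes on 23332 rows. The genes are the listed members of the family and were not picked by a threshold on their values, although earlier results of these data were known when the list was made. The cells were a conditionally immortalized line from the Immortomouse with the thermosensitive tsA58 T antigen, grown at 33 °C with γ-interferon, moved to 37 °C without it to differentiate, and used on day 14. All 12 arrays therefore come from 1 immortalized line, with no primary cells among them.

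The 4 groups held 3 Affymetrix Mouse Exon 1.0 ST arrays each. Control cells stayed in the same hood and incubator without flow, and the labels also call them pre-FFSS (before fluid flow shear stress). The sheared cells received 2 dynes/cm2 (75 ml/min) for 2 h at 37 °C and were harvested as the flow stopped (End), after 2 h of recovery in their original medium (Post-2hr), or after 24 h (Post-24hr). No unsheared array matched in time to the later harvests is among the 12, so flow and time in the apparatus or medium cannot be told apart. Slides were kept 3 to a dish, and separate cultures are nowhere stated for the replicates. The p-values below therefore only set each difference against the scatter among these samples, and that scatter may be technical.

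Ligands of this family are made as membrane-anchored precursors, cut free by ADAM metalloproteases, and bind receptors that pair up and phosphorylate one another. EGFR binds Hbegf, Ereg, Epgn, Tgfa and Btc products; ERBB2 has no known soluble ligand of its own and acts as a partner; ERBB3 binds neuregulins and has little kinase activity. The activated receptors drive the RAS-ERK and PI3K-AKT cascades, and ERK activity in turn raises transcription of several ligand genes and of Errfi1 (also called MIG6), whose product binds the EGFR kinase domain and promotes loss of the receptor. In mouse crescentic glomerulonephritis, HB-EGF from podocytes acting on podocyte EGFR is known to contribute to injury.

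Errfi1 and Hbegf had the largest differences from Control among the 9 genes at all 3 harvests, on the log2 scale. Errfi1, the feedback inhibitor, was higher than Control at every harvest in each same-numbered pair of arrays, by 0.28, 0.61 and 0.42 at End, Post-2hr and Post-24hr. Hbegf, which encodes HB-EGF, was higher in every such pair too, by 0.89, 0.88 and 0.42. The receptors differed little: the changes of Egfr, Erbb2 and Erbb3 lay between −0.12 and 0.23. With groups alone in the model, none of the 9 genes passed the threshold in any comparison. With replicate 1 set apart, 1 difference passed, that of Errfi1 at Post-2hr (adjusted p = 0.0465, limma). That call was lost with all 3 replicate numbers as a block (adjusted p = 0.0725) and without any single one of the 12 arrays (0.0643 to 0.167).

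The arrays of the set named replicate 1 stood apart from those of replicates 2 and 3, and this bears on every result below. On the leading principal component (42.4% of the variance) the replicate 1 arrays lay between −53.2 and −26.7, against 3.00 to 34.5 for replicates 2 and 3. Neither a batch nor a scan date is recorded in the labels. Each comparison is therefore given from a limma model with group means alone (the group model) and from one with a further term that separates replicate 1 from replicates 2 and 3 (the set-apart model), both fitted on all rows with Benjamini-Hochberg adjustment and a threshold of 0.05. Of the podocyte markers, 6 of 10 were measured: Cd2ap (mean log2 signal 12.45), Kirrel (10.96) and Podxl (9.89) gave bright signals, Wt1 (7.35) and Nphs1 (6.64) lay near the array medians of 6.928 to 7.115, and Ptpro (4.68) was dim. The rest of that list was not analysed here. Of the 4 measured tubule markers, Aqp1 (12.54) and Cdh16 (11.90) were bright and Slc34a1 (6.53) and Umod (5.67) were dim. Of the 5 mesangial or fibroblast markers, Acta2 (13.73), Pdgfrb (10.94) and Col1a1 lay above the array medians and Des (5.92) and Pdgfra (5.23) below, while the summed level of the 5 endothelial markers stayed between 5.00 and 5.19 as a mean of their log2 values. Of the 5 macrophage or leukocyte markers, the means of Cd68 (8.13) and Csf1r (7.81) lay above the array medians. Those of Itgam (5.17), Adgre1 (4.30) and Ptprc (3.97) lay below. Bright signals thus came from part of the podocyte list and from part of the lists of other cell types.

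The promoter sequence is shown for Errfi1 because its Post-2hr difference passed in the set-apart model, and in that model alone of the group, set-apart and block models. RefSeq (GRCm38.p6) promoter entries, spanning 250 bases before to 50 after a transcription start, exist for 6 of the 9 genes in the table used (Egfr, Erbb2, Epgn, Tgfa, Btc and Errfi1). Erbb3, Hbegf and Ereg are named only. Errfi1 has 2 entries on the forward strand of chromosome 4, and they are set side by side because both starts feed 1 gene-level array value. Capitals in the second mark, in order along the strand, a GC box, a pair of overlapping GC boxes, a cAMP response element (CRE) and a TATA box. The first holds none of the 7 motifs searched.
Errfi1 start 2, chr4:150854820-150855119: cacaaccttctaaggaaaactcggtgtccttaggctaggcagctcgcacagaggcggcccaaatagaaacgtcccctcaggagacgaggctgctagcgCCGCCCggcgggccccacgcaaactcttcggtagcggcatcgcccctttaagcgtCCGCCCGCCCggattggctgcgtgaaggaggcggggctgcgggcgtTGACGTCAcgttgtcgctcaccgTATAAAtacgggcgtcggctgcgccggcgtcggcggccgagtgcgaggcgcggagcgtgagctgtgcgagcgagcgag
Errfi1 start 1, chr4:150853546-150853845: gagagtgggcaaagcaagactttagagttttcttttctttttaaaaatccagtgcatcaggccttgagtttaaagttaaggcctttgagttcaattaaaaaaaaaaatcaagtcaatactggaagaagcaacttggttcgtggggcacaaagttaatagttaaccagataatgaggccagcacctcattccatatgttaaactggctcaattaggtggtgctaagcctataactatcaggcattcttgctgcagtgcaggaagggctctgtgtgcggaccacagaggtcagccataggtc

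The second Errfi1 promoter is GC-rich (66.7%), against 42% for the first. Its CRE, TGACGTCA, is a palindrome and reads the same on both strands, and it lies at −51 to −44 relative to the start. The TATA box follows at −28 to −23, and the GC boxes read on the opposite strand. The search covered both strands of 32851 RefSeq promoters of the same length for 7 motifs: the CRE, the AP-1 site with the letters TGANTCA, the EGR site with the letters GCGNGGGCG, the GC box with the letters GGGCGG, the ETS site with the letters CCGGAA, the TATA box with the letters TATAAA, and the CArG box. A CRE stood in 1.79% of them, a TATA box in 13.62% and a GC box in 35.66%, while AP-1 was found in 7.808%, the CArG box in 1.629%, EGR in 5.552% and ETS in 14.9%. Of the other members, Egfr held a GC box and an ETS match, Tgfa held 2 GC boxes, Epgn held a TATA box, and Erbb2 and Btc held no match in these windows. A match is a string of letters and not a measured binding site.

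Egfr encodes the receptor that the 5 ligands bind. Its log2 signals on arrays 1, 2 and 3 were 11.28, 11.49 and 11.36 in Control, 11.21, 11.52 and 11.53 at End, 11.41, 11.72 and 11.69 at Post-2hr, and 11.22, 11.66 and 11.49 at Post-24hr. Array 1 was the lowest of its group at all 4 stages, and every sheared group overlapped Control. The means ran 11.38 ± 0.11, 11.42 ± 0.18, 11.60 ± 0.17 and 11.46 ± 0.22 in harvest order (SD, n = 3 each). Egfr was highest at Post-2hr, 0.23 above Control, with a 95% interval of 0.06 to 0.40 in the set-apart model that was not corrected for the number of rows. It did not pass (adjusted p = 0.945 in the group model and 0.275 in the set-apart model, limma), although all 3 same-numbered pairs were higher. At End and Post-24hr the differences from Control were 0.04 (interval −0.13 to 0.21) and 0.08 (−0.09 to 0.25).

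Erbb2, the partner receptor, averaged 9.59 ± 0.28 in Control, 9.66 ± 0.20 at End, 9.47 ± 0.41 at Post-2hr and 9.49 ± 0.42 at Post-24hr (SD, n = 3 each). Its spread followed the replicate sets, since array 1 lay at 9.01 to 9.44 across the 4 groups and arrays 2 and 3 at 9.64 to 9.81. The changes against Control were 0.07 (95% interval −0.15 to 0.29), −0.12 (−0.34 to 0.10) and −0.11 (−0.32 to 0.11) at the 3 harvests. Erbb3 was dim, with values from 5.84 to 6.12 on all arrays and changes of 0.06 (−0.12 to 0.24), −0.07 (−0.25 to 0.11) and −0.07 (−0.25 to 0.12). No Erbb2 or Erbb3 difference passed, and the intervals hold differences of either sign. Between successive harvests, the highest Erbb3 array at Post-2hr (5.967) lay only just below the lowest at End (5.969). The share of all rows separated in this way was not counted. The Erbb3 difference of −0.13 did not pass either (adjusted p = 0.931 in the group model, limma).

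Hbegf encodes a ligand of EGFR that is also bound by heparan sulfate on the cell surface. On arrays 1, 2 and 3 its log2 signals were 9.39, 10.70 and 10.51 in Control, 10.60, 11.47 and 11.19 at End, 10.90, 10.98 and 11.36 at Post-2hr, and 10.15, 10.98 and 10.74 at Post-24hr. The Control array of replicate 1 was the lowest of the 12, with the next at 10.15. All 3 Post-2hr arrays lay above all 3 Control arrays, while End and Post-24hr overlapped Control through their replicate 1 arrays. The means were 10.20 ± 0.71, 11.09 ± 0.45, 11.08 ± 0.25 and 10.62 ± 0.42 in harvest order (SD, n = 3 each), so that End and Post-2hr stood level and Post-24hr lay between them and Control. The range of 0.89 between group means was the largest among the 9 genes.

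At End, Hbegf exceeded Control by 0.89 ± 0.36 on the log2 scale (SE, group model), a fold of 1.85, with a 95% interval of 1.37 to 2.48 in the set-apart model. The unadjusted p was 0.0322 in the group model and 0.00111 in the set-apart model, and neither passed over all rows (adjusted p = 1 and 0.34, limma). At Post-2hr the difference was 0.88 ± 0.36, a fold of 1.84 (interval 1.37 to 2.48), with adjusted p = 0.836 in the group model, 0.131 in the set-apart model and 0.166 with the replicate number as a block. The same-numbered differences at End were 1.20, 0.77 and 0.68, and at Post-2hr they were 1.51, 0.28 and 0.86. The low replicate 1 Control array weighs on the size: without it the difference was 0.48 at End and 0.48 at Post-2hr, and with replicates 2 and 3 alone it was 0.73 and 0.57. The sign stayed positive when any 1 of the 12 arrays was left out. More cells with the transcript and more transcript per cell cannot be told apart in such bulk RNA.

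At Post-24hr, Hbegf was 0.42 above Control, with an interval of −0.0038 to 0.85 and adjusted p = 1 in the group model and 0.956 in the set-apart model. Without the replicate 1 Control array it was 0.020. Post-24hr minus Post-2hr was −0.46 (interval −0.89 to −0.031), with same-numbered differences of −0.75, −0.0012 and −0.63. This did not pass (adjusted p = 0.354 in the set-apart model, limma), and in the group model the interval held 0. The numbers are not taken as pairs in this comparison, where deviations of the arrays numbered 2 from their group means had r = 0.029. Post-2hr minus End came to −0.0035 (interval −0.43 to 0.42), and its sign turned under median centring (0.046).

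**Figure D1:**
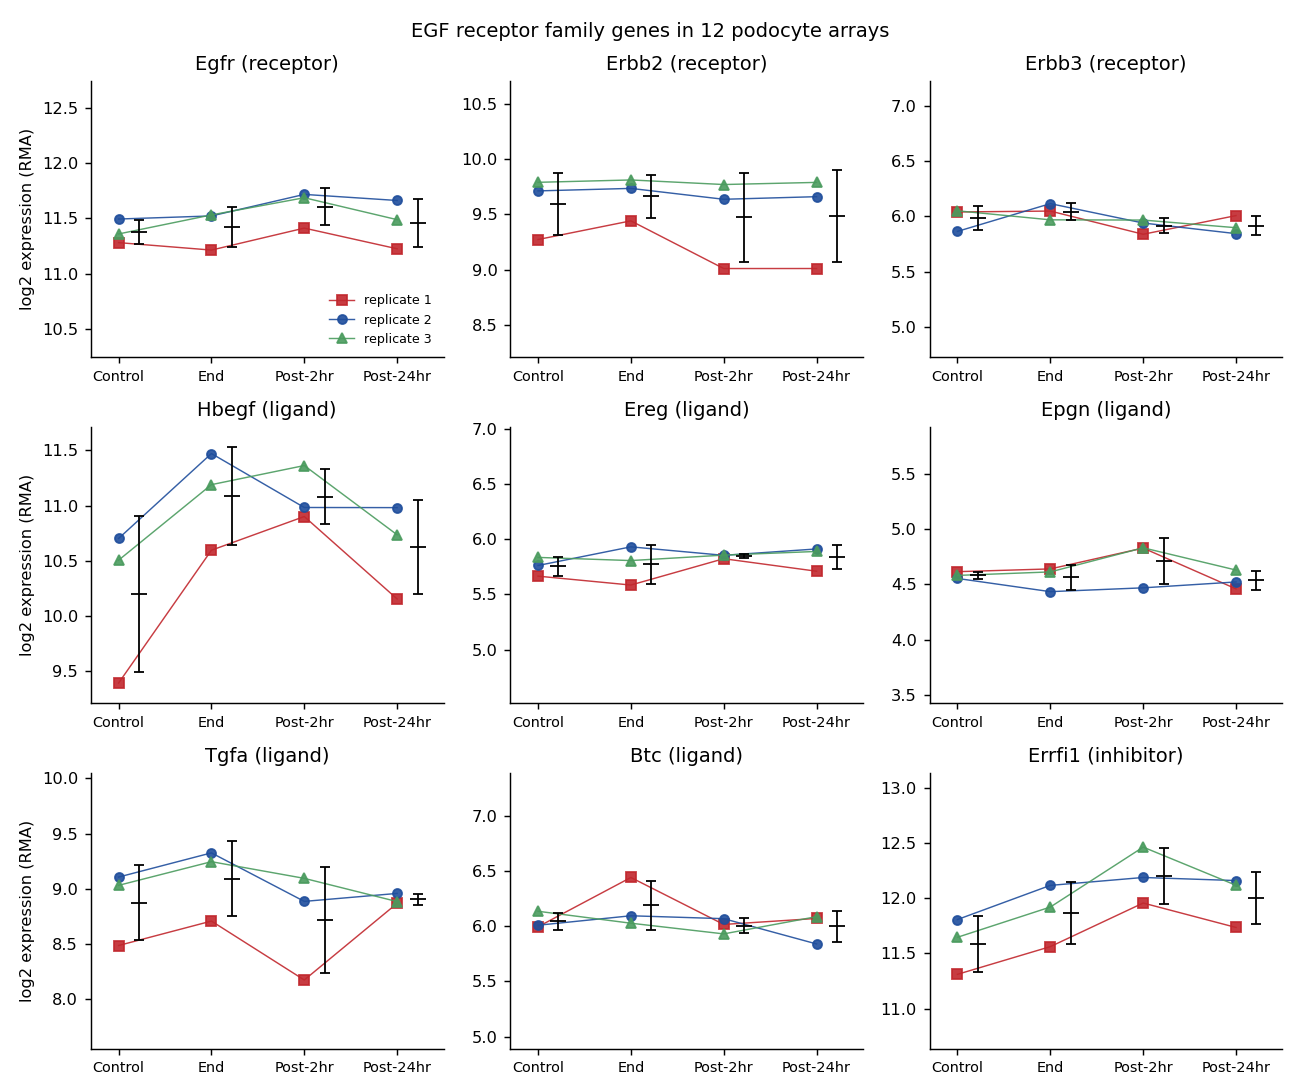
Log2 signal of the 9 genes on each of the 12 arrays, 1 panel per gene with its own vertical range, groups along the horizontal axis in harvest order, marker shape and colour for the replicate number and a bar for the group mean. Errfi1 and Hbegf show all 3 Post-2hr arrays above all 3 Control arrays. Replicate 1 lies lowest in all 4 groups for Egfr, Erbb2, Hbegf, Ereg, Tgfa and Errfi1.

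Tgfa encodes transforming growth factor alpha, another EGFR ligand. Its arrays 1, 2 and 3 gave 8.49, 9.11 and 9.03 in Control, 8.71, 9.33 and 9.25 at End, 8.18, 8.89 and 9.10 at Post-2hr, and 8.87, 8.96 and 8.88 at Post-24hr. All groups overlapped. The End arrays each exceeded the Control array of the same number by nearly the same amount, 0.22, 0.22 and 0.21, and the difference of 0.22 had an interval of −0.10 to 0.54. Leaving out 1 array moved it to between 0.024 (without Control 1) and 0.41 (without End 1). At Post-2hr Tgfa was −0.16 (−0.48 to 0.16) from Control and at Post-24hr 0.03 (−0.29 to 0.35). Its lowest mean followed its highest one: Post-2hr minus End was −0.37 (−0.69 to −0.05 in the set-apart model), lower in 3 of 3 same-numbered pairs. It did not pass (adjusted p = 0.928 in the group model and 0.299 in the set-apart model, limma), and in the group model the interval held 0. In this step all 3 pairs were lower for 4 of the 9 genes and higher for 3. The share of all rows with such agreement was not counted. Hbegf had nearly equal means at End and Post-2hr (11.09 and 11.08), but its same-numbered arrays differed in both directions. A difference between Tgfa and Hbegf in this step was not tested.

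The ligands Ereg (epiregulin), Epgn (epigen) and Btc (betacellulin) were dim. Ereg ran from 5.59 to 5.93 over the 12 arrays, Epgn from 4.43 to 4.83 and Btc from 5.84 to 6.44, all under the array medians. No detection calls were used, so it is not known whether these signals exceed background, and a transcript near background could change without moving its value. Their changes against Control were 0.02, 0.09 and 0.08 for Ereg, −0.02, 0.13 and −0.05 for Epgn, and 0.14, −0.04 and −0.05 for Btc at the 3 harvests. The interval for Btc at End, where its mean was highest, was −0.11 to 0.39. In the RefSeq gene order of GRCm38.p6, Epgn, Ereg, Areg and Btc are consecutive protein-coding genes on chromosome 5, and Areg was not analysed here. The 3 measured neighbours did not share a pattern: after the mean of each replicate number was subtracted, Ereg and Epgn had r = 0.22, Ereg and Btc r = −0.49, and Epgn and Btc r = −0.31 over 12 arrays, as a description of dim signals that share arrays.

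Errfi1 encodes the feedback inhibitor that binds the EGFR kinase domain. Its log2 signals on arrays 1, 2 and 3 were 11.31, 11.81 and 11.64 in Control, 11.56, 12.11 and 11.92 at End, 11.95, 12.19 and 12.46 at Post-2hr, and 11.73, 12.16 and 12.12 at Post-24hr. All Post-2hr arrays lay above all Control arrays, and the other sheared groups overlapped Control only through their replicate 1 arrays. Group means were 11.59 ± 0.25, 11.86 ± 0.28, 12.20 ± 0.25 and 12.00 ± 0.23 in harvest order (SD, n = 3 each). The order of means was Post-2hr, Post-24hr, End and Control, and only the outer pair did not overlap.

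At Post-2hr, Errfi1 exceeded Control by 0.61 ± 0.20 on the log2 scale (SE, group model), a fold of 1.53, with a 95% interval of 1.33 to 1.76 in the set-apart model. It did not pass in the group model (adjusted p = 0.692) and rose in the set-apart model (unadjusted p = 6.98e-05, adjusted p = 0.0465, limma). With all 3 replicate numbers as a block, adjusted p was 0.0725, and with replicates 2 and 3 alone the difference was 0.60 (adjusted p = 0.232). The call was lost in the set-apart model without any single one of the 12 arrays (0 of 12 kept it, adjusted p between 0.0643 and 0.167), while the difference stayed between 0.55 and 0.69. At End the difference was 0.28 (interval 0.08 to 0.48, adjusted p = 1 in the group model and 0.56 set apart), with pairs at 0.25, 0.31 and 0.27, and it was 0.14 without Control 1, 0.15 without End 2 and 0.43 without End 1. At Post-24hr it was 0.42 (0.21 to 0.62, adjusted p = 1 and 0.69), with pairs at 0.42, 0.35 and 0.47. In the group model the Errfi1 intervals at End and Post-24hr both held 0.

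Between harvests, Errfi1 at Post-2hr exceeded End by 0.34 (0.13 to 0.54 in the set-apart model), higher in 3 of 3 pairs. The set-apart model of limma gave unadjusted p = 0.00447 and adjusted p = 0.165, and in the group model the interval held 0. In this step all 3 pairs were higher for 3 of the 9 genes, and the share of all rows was not counted. For Errfi1, Post-24hr minus Post-2hr was −0.20 (−0.40 to 0.0046, adjusted p = 0.389). Errfi1 thus had its highest mean after 2 h of recovery, while the highest mean of Hbegf was shared by End and Post-2hr. That the time courses of the 2 genes differ was not tested. An F test over the 4 groups gave Errfi1 an adjusted p of 0.935 in the group model and 0.105 in the set-apart model, and Hbegf 0.998 and 0.173. It called 2 of 23332 rows (0.00857%) in the group model and 7 (0.03%) in the set-apart model, and 0 of the 9 genes in either.

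**Figure D2:**
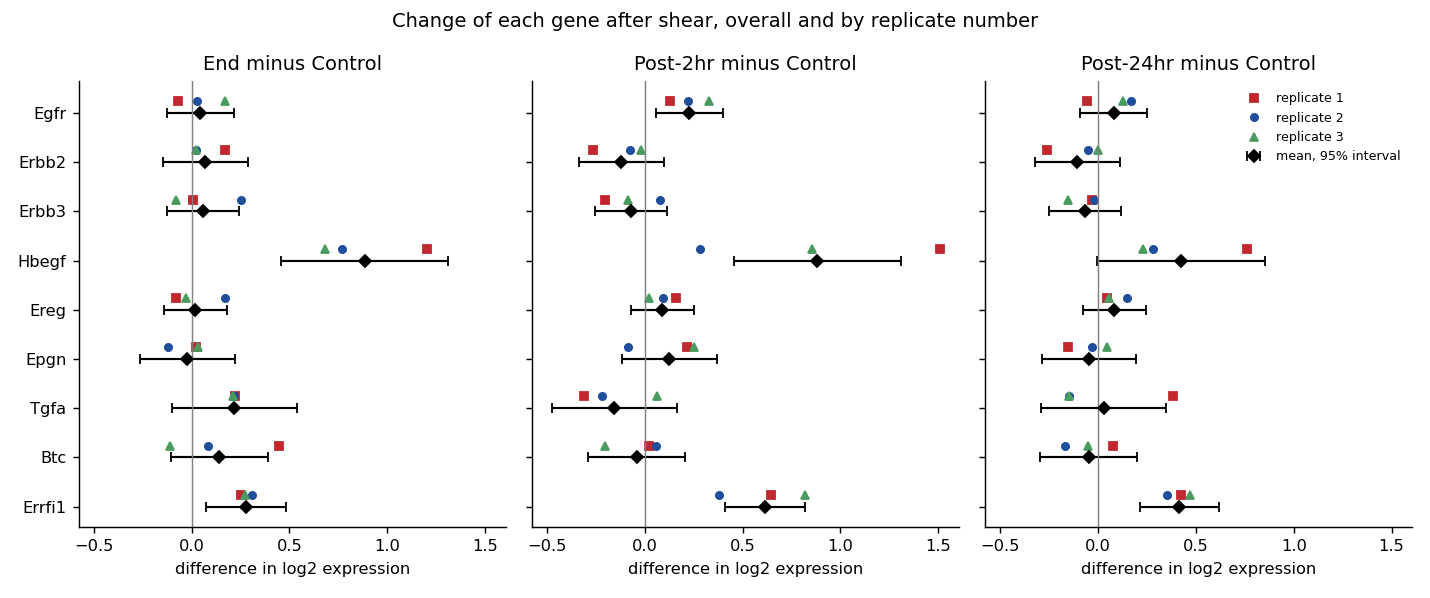
Difference from Control in log2 signal (horizontal axis) for each gene at End, Post-2hr and Post-24hr, with coloured symbols for the 3 same-numbered pairs of arrays and a black diamond with a bar for the mean and its 95% interval from the set-apart model. Errfi1 pairs lie close together at End (0.25 to 0.31) and Post-24hr (0.35 to 0.47), whereas Hbegf pairs at Post-2hr spread from 0.28 to 1.51.

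Counted as a set, 8 of the 9 genes had a higher mean at End than in Control, 5 at Post-2hr and 5 at Post-24hr, with median changes of 0.07, 0.09 and 0.03 against 0.01, −0.02 and 0.0023 over all rows, of which 54.2%, 44.7% and 50.7% had higher means. The group model of limma called 0 of the 9 genes at End, where 0% of rows passed, 0 at Post-2hr, where 0.0171% passed, and 0 at Post-24hr, where 0% passed. At an unadjusted p below 0.05 it counted 1, 2 and 0 genes, against 3.62%, 5.64% and 2.4% of all rows. The set-apart model called 0 genes at End (0% of rows), 1 at Post-2hr (0.154%) and 0 at Post-24hr (0%), and counted 2, 3 and 1 at the unadjusted level, against 7.18%, 12.3% and 5.13% of all rows. A model with replicate number as a block called 0 genes at each harvest, with 0.163% of rows called at Post-2hr, and an ordinary linear model without moderation called 0 as well. For Post-2hr minus End, 0 genes passed in either model, with 0.0257% of rows in the group model and 0.154% in the set-apart model, and 0 and 3 genes at the unadjusted level (6.24% and 13.3% of rows). For Post-24hr minus Post-2hr, 0 genes passed, with 0% and 0.00857% of rows, and 0 and 1 at the unadjusted level (5.71% and 13.1% of rows).

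Counts of agreement between pairs were read against all rows in the same way. Groups that did not overlap, with the sheared arrays higher, were found for 0 of 9 genes at End (4.69% of rows), 2 at Post-2hr (Hbegf and Errfi1, against 4.08% of rows) and 0 at Post-24hr (2.7% of rows). All 3 same-numbered differences were above 0 for 4 genes at End (Erbb2, Hbegf, Tgfa and Errfi1, against 18.7% of rows), for 4 at Post-2hr (Egfr, Hbegf, Ereg and Errfi1, against 13.3%) and for 3 at Post-24hr (Hbegf, Ereg and Errfi1, against 14%). All 3 differences were below 0 for 0, 1 and 2 of the 9 genes at End, Post-2hr and Post-24hr. The share of all rows below 0 in all 3 was not counted. The 3 comparisons share the Control arrays, so a gene that recurs in them is not seen 3 times independently.

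For Egfr, Erbb2 and Tgfa the difference between replicate sets was larger in size than any of their differences from Control. With group means held, replicate 1 was lower than replicates 2 and 3 by a log2 difference of −0.73 ± 0.14 for Hbegf (SE, adjusted p = 0.00419), −0.55 ± 0.07 for Erbb2 (0.000484), −0.51 ± 0.11 for Tgfa (0.00619), −0.41 ± 0.07 for Errfi1 (0.00169) and −0.27 ± 0.06 for Egfr (0.00562), all in limma. These 5 of 9 genes fell in replicate 1, against 11% of all rows called lower there. Over all rows 30.5% were called in either direction, 2555 lower and 4557 higher. Ereg (−0.16, adjusted p = 0.0504), Erbb3 (0.03), Epgn (0.06) and Btc (0.11), the 4 dim genes, did not pass. In the same arrays, 8 of 9 measured markers of G2 and M phase were lower, with list means of 7.23 to 7.73 in replicate 1 and 8.37 to 9.68 in replicates 2 and 3. The tubule list was lower as well, at 8.50 to 8.83 in replicate 1 and 9.40 to 9.49 in replicates 2 and 3, with 3 of its 4 measured genes passing. The part of cell division or of a change in cell make-up in the levels of these genes was not tested. Across the shear groups the G2 and M list means overlapped, at 7.73 to 8.98 for End and 7.38 to 9.68 for Post-24hr, against 7.59 to 8.87 for Control, and the Post-2hr arrays also spanned the Control range.

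**Figure D3:**
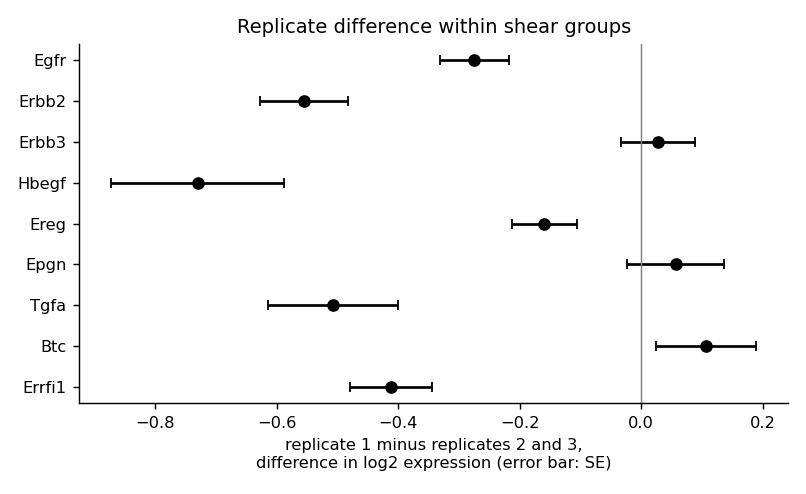
Difference in log2 signal between replicate 1 and replicates 2 and 3 with the shear groups held (horizontal axis), 1 point per gene with a bar of ± 1 SE. Hbegf, Erbb2, Tgfa, Errfi1 and Egfr lie below 0 by −0.73 to −0.27, and Erbb3, Epgn and Btc lie at or slightly above 0.

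The other ligands of the family were read beside the listed ones. Nrg1, a neuregulin that binds ERBB3, gave a bright signal with means of 11.84 in Control, 11.77 at End, 11.97 at Post-2hr and 12.13 at Post-24hr. It was highest at Post-24hr, 0.30 above Control in 3 of 3 pairs, and did not pass (adjusted p = 1 in the group model and 0.96 set apart). Egf itself was dim, with changes of 0.04, −0.02 and 0.07, and Nrg4 was dimmer still, with −0.0094, −0.09 and −0.11. Erbb4, Areg, Nrg2 and Nrg3 were not analysed here. None of the 3 measured genes passed in either model, and none had an unadjusted p below 0.05 at the 3 harvests.

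The machinery around the receptor was nearly flat. Of the ligand-shedding genes (ADAM proteases, rhomboid proteins and their inhibitors), 10 of 11 were measured and 0 passed in either limma model, with median changes of −0.02, 0.06 and 0.01 at End, Post-2hr and Post-24hr. At an unadjusted p below 0.05 the group model counted 0 genes at each harvest, and the set-apart model 0, 1 and 0, against the same shares of all rows as for the 9 genes (3.62%, 5.64% and 2.4% in the group model, 7.18%, 12.3% and 5.13% set apart), which also apply to the next lists. The largest difference at each harvest was that of Rhbdl2, a rhomboid protease, at −0.18, −0.29 and −0.13. Timp3, an inhibitor of ADAM proteases and the brightest of the list, differed by −0.02, 0.12 and 0.0074. Adam17, a main sheddase of several EGFR ligands, was not analysed here.

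Of the adaptors and the RAS-ERK cascade, 10 of 17 genes were measured and 0 passed in either model, with medians of 0.04, −0.06 and 0.01 and counts at the unadjusted level of 1, 0 and 0 in the group model and 2, 2 and 0 in the set-apart model. Map2k1, the kinase that activates ERK, was −0.21 from Control at End, and Gab1, a docking protein, was −0.23 at Post-2hr and −0.07 at Post-24hr. The adaptor Shc1 differed by 0.04, −0.03 and −0.0053. In the PI3K, PLC, SRC and STAT arm, 11 of 13 genes were measured and 0 passed in either model, with medians of −0.0034, −0.11 and −0.02 and unadjusted counts of 0, 1 and 0 in the group model and 1, 2 and 0 set apart. Plcg1, the phospholipase recruited to EGFR, came nearest at Post-2hr, −0.37 from Control in 3 of 3 pairs (adjusted p = 0.396 in the group model and 0.0775 set apart, limma). Stat5b differed by −0.19 at End, Stat5a by −0.20 at Post-24hr, and the kinase Akt1 by 0.00093, −0.08 and 0.06. Means above Control were found for 5, 3 and 5 of 11 genes of this arm at End, Post-2hr and Post-24hr. The cascade list had 6, 3 and 6 of 10, against 54.2%, 44.7% and 50.7% of all rows.

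Other inhibitors of the receptor moved less than Errfi1, though the difference was not tested. Of 19 further genes of receptor inhibition and turnover, 16 were measured and 0 passed in either model, with medians of 0.05, 0.03 and 0.02 and unadjusted counts of 1, 0 and 0 in the group model and 1, 2 and 0 set apart. The largest difference was 0.19 for Hgs, an endosomal sorting protein, at End. Lrig1, a transmembrane protein that lowers ERBB levels, was 0.33 above Control at Post-2hr in 3 of 3 pairs, with adjusted p = 0.981 in the group model and 0.37 set apart. Cd2ap, an adaptor for receptor uptake that is also a slit-diaphragm protein of podocytes, was 0.16 above Control at Post-24hr.

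Calls in the lists around the receptor were found among transcripts known to depend on ERK downstream of EGF, a list made with earlier results known. Of its 17 genes 16 were measured, and 14, 16 and 15 had higher means than Control at End, Post-2hr and Post-24hr, with medians of 0.24, 0.74 and 0.52, against 54.2%, 44.7% and 50.7% of all rows with higher means. At Post-2hr the group model called Plaur, the urokinase receptor, at 1.54 (adjusted p = 0.00079), and Fosl1, an AP-1 subunit, at 1.68 (adjusted p = 0.0182), 2 of 16 higher and 0 lower, where 0.0171% of all rows passed. The set-apart model added Dusp6, an ERK phosphatase, at 1.47 (adjusted p = 0.0328), and Ier3, an early response gene, at 1.15 (adjusted p = 0.0342), 4 of 16 in all, where 0.154% of all rows passed. Plaur kept its call in both models without any 1 of the 12 arrays (adjusted p up to 0.0274). Fosl1 lost it in the group model without Control 2 or 3, End 1, Post-24hr 3 or Post-2hr 1 or 2, and in the set-apart model without Control 2 or 3 or Post-2hr 1 or 2. In the set-apart model Dusp6 kept its call in 3 of 12 such fits and Ier3 in 1 of 12. At End and Post-24hr 0 passed in either model, with unadjusted counts of 5 and 6 in the group model (3.62% and 2.4% of all rows) and 9 and 11 set apart (7.18% and 5.13%). The 9 at End include Spry1, an inhibitor of the RAS-ERK cascade, which was −0.54 from Control. Egr1, an immediate early transcription factor, had the largest difference there, 1.13 and 0.98. Post-2hr minus End called Plaur at 1.02 in both models and Fosl1 at 1.19 in the set-apart model only (adjusted p = 0.13 in the group model and 0.034 set apart), where 1 and 2 of 16 passed.

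**Figure D4:**
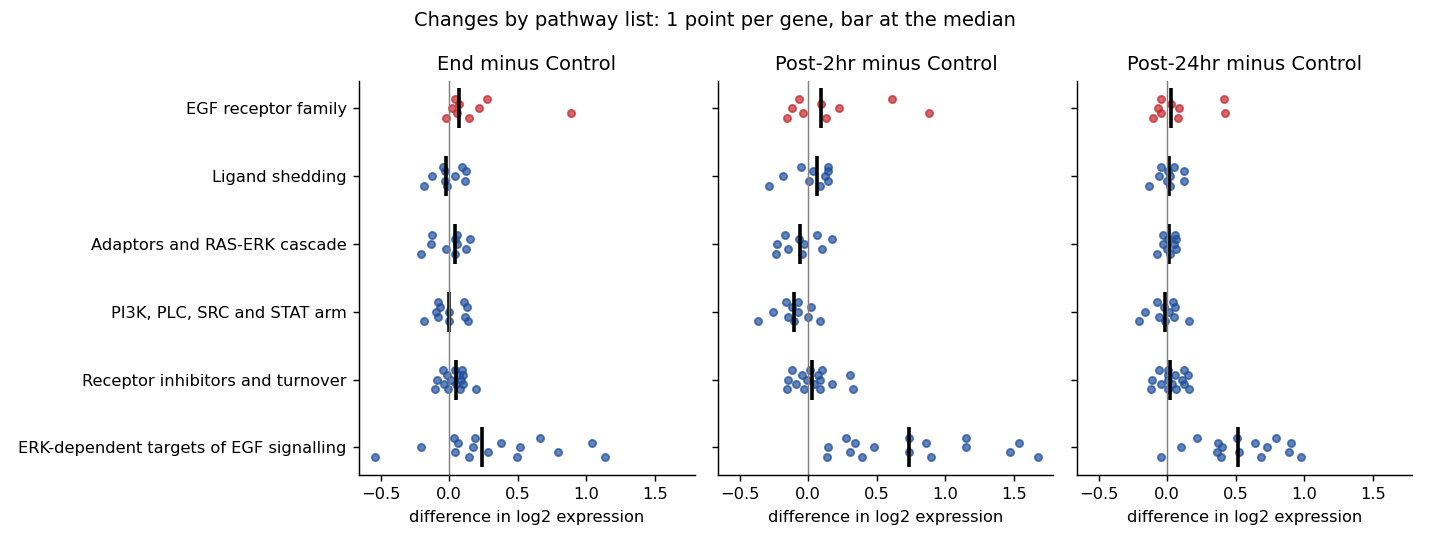
Difference from Control in log2 signal at End, Post-2hr and Post-24hr for each measured gene, 1 point per gene with a bar at the median: the 9 family genes in red, and 5 lists around the receptor in blue, the list names on the vertical axis. Points of the shedding, cascade and turnover lists gather around 0. The PI3K, PLC, SRC and STAT arm has medians of −0.0034, −0.11 and −0.02, and the ERK-dependent list has medians of 0.24, 0.74 and 0.52.

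Across the 12 arrays, the pattern of Errfi1 after subtraction of each replicate number's mean was most like those of Dusp6 (r = 0.97), Plk3 (r = 0.96) and Plaur (r = 0.93) among 8432 genes. The pattern of Hbegf was most like those of Vasn (r = 0.95), Rhob (r = 0.94) and Vps37b (r = 0.93). Plk3, a polo-like kinase, was 0.50, 1.43 and 0.97 above Control at the 3 harvests, highest at Post-2hr as Errfi1 was. Vasn, a membrane protein that binds TGF-beta, was 0.90, 0.93 and 0.41 above Control, with End and Post-2hr level as in Hbegf. Neither passed in the group or set-apart model, and Plk3 at Post-2hr passed with the replicate block alone (adjusted p = 0.379, 0.08 and 0.042 in the group, set-apart and block models). Within the family the highest values were r = 0.78 for Errfi1 with Egfr and r = 0.72 for Errfi1 with Hbegf, and Hbegf with Egfr had r = 0.43. These points share arrays, normalization and the 4 groups, so they serve as a description.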

How the data were processed

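The deposited values are gene-level log2 signals, summarised by the authors from several exon probes per gene, per the labels' protocols. The submitters' processing notes name RMA and Partek, without versions, and the genome build was not given in the sources used here. The quantile normalization that RMA usually includes hides a shift in total RNA per cell. The number of arrays limits the precision. All 12 columns were used (0 left out). Symbols came from a platform annotation table: 14996 rows have 1 symbol, 1019 several and 7317 none here.

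All 23332 rows entered limma 3.58.1 (R 4.3.3, lmFit and eBayes) with group means on 12 arrays, 8 residual degrees of freedom, and Benjamini-Hochberg adjustment within each comparison at 0.05. Alternatives were a replicate block, replicate 1 set apart, replicates 2 and 3 only, other scalings, filters, variance models, array weights and left-out arrays. The 9 listed genes were all named. List genes were named where they passed in either model, had the largest change at a harvest or were the brightest. For the 2 members with the widest range of group means, the 3 genes of most similar pattern were named. The members and lists were chosen with earlier results of these data known. Same-numbered arrays deviated together from their group means in the 3 comparisons with Control and in Post-2hr minus End (r between 0.22 and 0.72). In Post-24hr minus Post-2hr r was 0.029 for number 2. The numbers were therefore taken as pairs in the first 4 comparisons, which the labels do not state. Differently numbered arrays were not compared, and the offset of replicate 1 alone moves arrays 2 and 3 to the same side. The check thus cannot show that 2 belongs with 2 and 3 with 3. The fits were tested on simulated data.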

Additional observations from a re-analysis of the deposited data

How the results depend on the processing

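Of 1055 alternative values of 45 gene differences, 995 kept their direction and side of the threshold, 56 turned direction (31 of them with 1 array left out) and 4 gained a call. No difference was called with groups alone, so none could lose a call there. The call of Errfi1 with replicate 1 set apart was lost in 12 of 12 fits with 1 array left out. The mean of several rows gave no value because each gene has 1 row, and filters removed the dim genes. The differences that turned were small, and dim signals and 3 arrays a group limit what can be seen.

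The replicate block called 38 rows at Post-2hr minus Control, against 4 without it, 5 at Post-24hr minus Post-2hr and 1 in the F test, and gave 0 calls among the 9 genes. Setting replicate 1 apart called 36, 36 (Post-2hr minus End), 2 (Post-24hr minus Post-2hr) and 7 (F test) rows, and Errfi1 at Post-2hr (0.61). Replicates 2 and 3 only called 0 at Post-2hr minus Control, 0 at Post-2hr minus End and 0 in the F test. At Post-2hr minus Control, the 50th percentile filter called 10 rows, 1-symbol rows 8, no moderation 2 and only the compared groups 0. At Post-2hr minus End, a variance trend called 3 and only the compared groups 0. In the F test, centring called 5, the filters 7 and 7, 1-symbol rows 7 and no moderation 4. Array weights (up to 5.86 for Control 2 and 5.27 for Post-2hr 3) called 77, 3863 and 3 rows at End, Post-2hr and Post-24hr against Control, 378 at Post-2hr minus End, 20 at Post-24hr minus Post-2hr and 1712 in the F test, and at Post-2hr Hbegf (0.68, adjusted p = 0.0425), Epgn (0.23, 0.0491) and Errfi1 (0.64, 0.00865). Leaving out 1 array gave 1 to 5 rows at Post-2hr minus Control, 0 to 5 at Post-2hr minus End, 0 to 5 in the F test, and 1 to 32 at Post-2hr with replicate 1 set apart, where Errfi1 ran from 0.55 to 0.69.

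Differences that turned direction were as follows. With replicates 2 and 3 only, Btc at End was −0.011, Epgn and Tgfa at Post-24hr 0.0084 and −0.15, Ereg at Post-2hr minus End −0.014, and Erbb3, Ereg and Tgfa at Post-24hr minus Post-2hr −0.083, 0.045 and −0.069. With centring, Btc at Post-2hr was 0.014, Hbegf at Post-2hr minus End 0.046, and Erbb2 and Erbb3 at Post-24hr minus Post-2hr −0.048 and −0.061. With quantile normalization, Epgn at End was 0.0092, Hbegf at Post-2hr minus End 0.034, and Erbb2 and Erbb3 at Post-24hr minus Post-2hr −0.038 and −0.020. With array weights, Erbb2 and Erbb3 at Post-2hr were 0.019 and 0.068, Erbb3 and Tgfa at Post-24hr 0.0014 and −0.15, Hbegf at Post-2hr minus End 0.080, and Erbb2, Erbb3, Ereg, Tgfa and Btc at Post-24hr minus Post-2hr −0.11, −0.067, 0.018, −0.11 and 0.022. The cause was not tested.

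With 1 array left out, differences from Control at End ran from −0.010 to 0.15 (Egfr), −0.089 to 0.18 (Erbb2), −0.0012 to 0.097 (Erbb3), −0.058 to 0.11 (Ereg) and −0.060 to 0.043 (Epgn). At Post-2hr they ran from −0.28 to 0.11 (Erbb2), −0.35 to 0.12 (Tgfa) and −0.073 to 0.0030 (Btc). At Post-24hr they ran from −0.021 to 0.20 (Egfr), −0.26 to 0.13 (Erbb2), −0.16 to 0.14 (Tgfa) and −0.091 to 0.032 (Btc). Post-2hr minus End ran from −0.34 to 0.041 (Erbb2), −0.25 to 0.19 (Hbegf) and −0.024 to 0.15 (Ereg). Post-24hr minus Post-2hr ran from −0.22 to 0.25 (Erbb2), −0.044 to 0.037 (Erbb3), −0.045 to 0.056 (Ereg), −0.087 to 0.37 (Tgfa) and −0.050 to 0.074 (Btc).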
